A study of Homo sapiens with 2 samples.

Results

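The MYC gene, the long noncoding RNA gene PVT1 and 4 transcript genes upstream of MYC, namely CASC11, CASC8, POU5F1B and CCAT1, were examined for H3K27me3 in HCT116 cells, a widely used line grown from a human colon tumour. The 6 members are spans of chromosome 8 on hg19, chosen with earlier results of these data known. Their limits were set by gene position and not by any measured value. Together the spans cover 555 bins of 1 kb. Of these, 534 are listed in at least 1 library, out of 2600564 such autosomal bins. The samples are 2 ChIP-seq libraries of unmodified HCT116 cells, named in the labels as biological replicates, cultured in McCoy's medium with serum and pulled down with an antibody to the mark. They form 1 group, with no treatment, no second genotype and no input library used here, so every comparison is between regions of the same libraries and none is between conditions. Because a histone mark gives no marker expression, the cell type named in the labels was not checked.

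H3K27me3 is the trimethylation of lysine 27 on histone H3. Polycomb repressive complex 2 deposits it, and it is best known over silent developmental genes. MYC encodes a transcription factor that drives growth and division, and in colon cancer cells it is controlled by enhancers spread over the gene-poor DNA around it, much of which is itself transcribed into noncoding RNA. The title of the series names enhancer hubs that regulate MYC, and the question taken up here is how much of the repressive mark lies over MYC and over each of these transcribed spans.

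The level of a span is its read count per 1 kb bin, with bins that are absent from a file counted as 0, divided by the library's mean over listed autosomal 1 kb bins, so that 1 is the autosomal mean. That mean was 22.0 reads in replicate 1, which held 53187504 reads, and 37.5 reads in replicate 2, which held 97031399 reads. A single read in a bin is thus 0.0454 on this scale in replicate 1 and 0.0266 in the other library, and values of single bins are coarse. Replicate 2 lists more bins, which lowers its mean and places it 6.96% higher than replicate 1 at an equal share of autosomal reads. Intervals are exact Poisson 95% intervals on counts divided by the dispersion between the libraries, and they cover counting error and that spread only. Levels are not corrected for copy number. Over chromosome 8 beyond 70 Mb, where all members lie, the median listed bin stood at 0.545 and 0.559, against 0.364 and 0.373 over the autosomes, and the part of copy number in the levels was not tested.

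The members fell apart by level. PVT1, MYC and CCAT1 stood lowest, CASC8 and CASC11 stood more than 2-fold above them, and POU5F1B lay between. At this scale no member bin was enriched. Of the 534 listed member bins, 0 were enriched in both libraries by a one-sided Poisson test, Benjamini-Hochberg adjusted, with a level of at least 2-fold, where 12.7% of listed autosomal bins were. Replicate 1 alone had 1 such bin, against 14% of autosomal bins, and replicate 2 alone had 1, against 15%. Scaled to the median listed autosomal bin in place of the mean, 23 member bins (4.31%) were enriched in both libraries, against 26.7% of autosomal bins. At an unadjusted Poisson p under 0.05 in both libraries, with no minimum fold, 3 member bins passed (0.562%), against 18.2% of autosomal bins. These Poisson tests used raw counts, not divided by the dispersion between the libraries, so they can pass bins too readily.

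**Figure D1:**
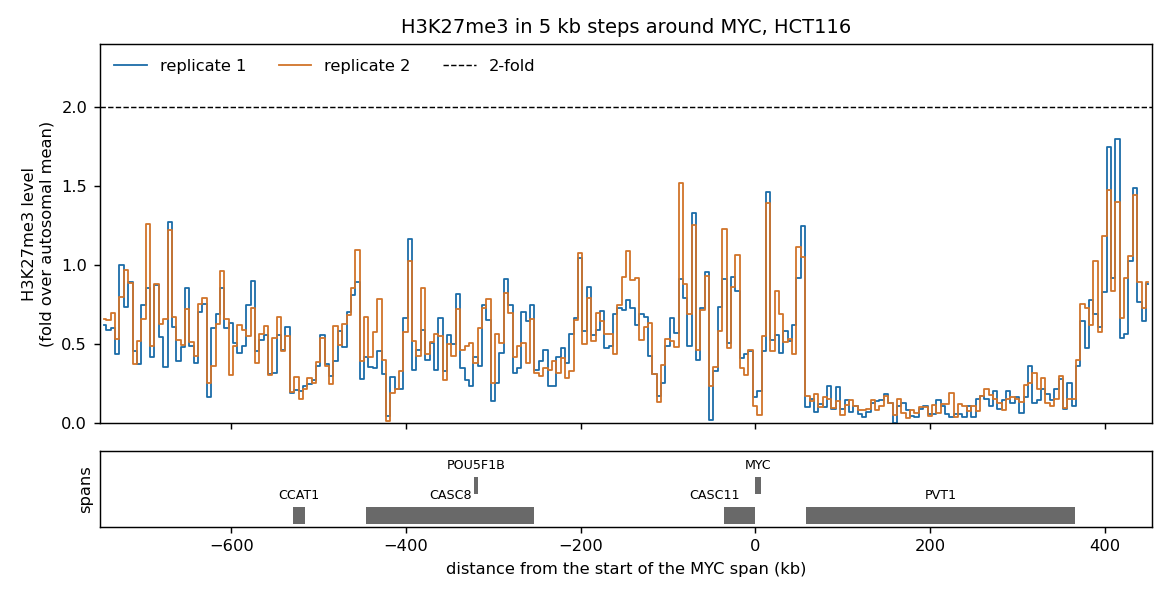
H3K27me3 level (fold over the autosomal mean) in 5 kb steps of each library, against distance from the start of the MYC span in kb, with the 6 spans drawn below. The highest step reached 1.80 in replicate 1 and 1.52 in replicate 2, both under the dashed line at 2-fold, and the trough over PVT1 runs from end to end of its span.

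The MYC gene occupies 6 kb at chr8:128748001-128754000. It held 20 reads in replicate 1 and 22 in replicate 2, a level of 0.151 (0.0638 to 0.303) and 0.0977 (0.0432 to 0.190), with a mean of 0.125 ± 0.0381 (SD, n = 2). From the start of the span to its end, the bins of replicate 1 held 3, 3, 4, 0, 8 and 2 reads. Those of replicate 2 held 5, 11, 0, 1, 5 and 0 reads. All 6 bins lay under 0.5-fold in both libraries, where 54.2% of listed autosomal bins do, and no bin was high in both. At such counts the bins of MYC cannot be ordered among themselves. Of autosomal windows of 6 kb with at least 90% of their bins listed, 18.5% stood at or below MYC in replicate 1 and 4.03% in replicate 2. Among those on chromosome 8 beyond 70 Mb the shares were 7.39% and 0.761%.

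The low stretch was wider than the gene. Bins under 0.5-fold in both libraries ran without a break for 12 kb, from 128745001 to 128757000, through the end of CASC11, MYC and the first 3 kb beyond it. In steps of 5 kb, the level just before MYC was 0.227 and 0.133, and one step farther it was 0.482 and 0.496. Beyond MYC the level rose to 0.454 and 0.421 in the first step, then to 1.37 and 1.43 in the second. That second step holds the bin at 128762001-128763000, the only bin between MYC and PVT1 that was enriched in both libraries, at 2.18 and 2.34. Against the 25 kb on either side combined, MYC stood at 0.254 times the level in replicate 1 (0.114 to 0.534) and at 0.153 times in replicate 2 (0.0628 to 0.291). The side before MYC lies almost wholly in CASC11.

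**Figure D2:**
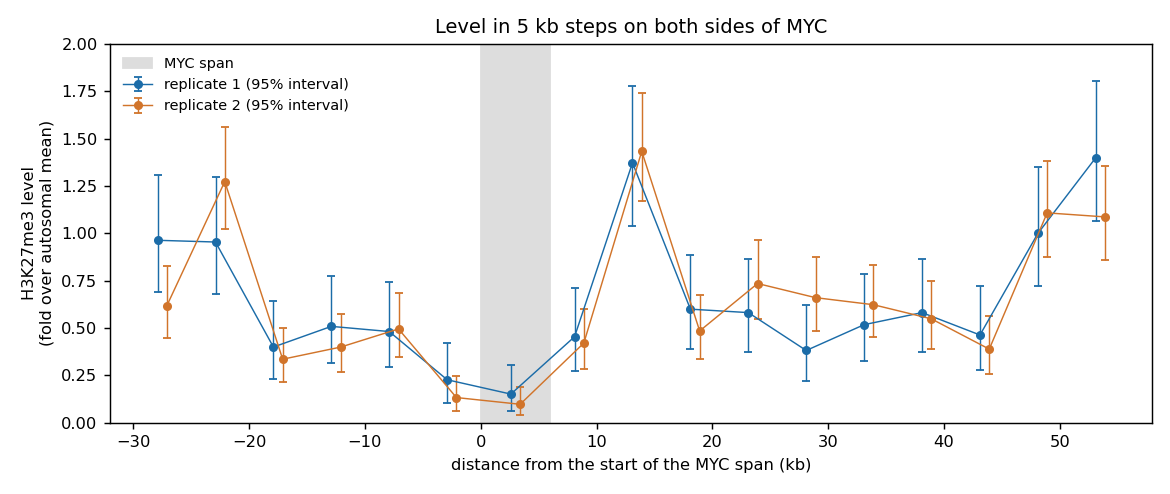
H3K27me3 level (fold over the autosomal mean) in the MYC span and in 5 kb steps on both sides, against distance from the start of the span in kb. Points are the libraries and bars their 95% intervals. The lowest values lie in the span and in the step before it, and the step from 5 to 10 kb behind the span reads 1.37 and 1.43.

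PVT1, a long noncoding RNA gene downstream of MYC that hosts several microRNAs, occupies 308 kb at chr8:128806001-129114000. It is the longest member. It held 834 and 1521 reads, a level of 0.123 (0.109 to 0.139) in replicate 1 and 0.132 (0.120 to 0.144) in replicate 2, or 0.127 ± 0.00601 (SD, n = 2). The low level was shared by nearly the whole gene. Of 293 listed bins, 286 (97.6%) lay under 0.5-fold in both libraries, against 54.2% of listed autosomal bins. The remaining 15 bins of the span were listed in neither library. The median bin was 0.0909 in replicate 1 and 0.107 in replicate 2, and the highest bins reached 0.682 and 0.746.

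Of the 7 listed bins of PVT1 that were not under 0.5-fold in both libraries, 6 lay beyond 129047000, towards the end of the gene, and each of the 7 passed 0.5-fold in 1 library only. The bin at 129063001-129064000, the highest by mean, read 15 reads in replicate 1 and 14 in replicate 2, levels of 0.682 and 0.373. Its neighbour at 129062001-129063000 came next, with 12 and 14 reads. The bin at 129073001-129074000 read 2 and 28 reads, so it was high in replicate 2 only. The longest stretch of PVT1 with no bin at or above 0.5-fold in either library measured 206 kb, from 128841001 to 129047000, at 0.101 and 0.110.

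Within PVT1 the end of the gene stood above the rest. In 4 consecutive parts of 77 kb, replicate 1 read 0.112, 0.0974, 0.106 and 0.177, and replicate 2 read 0.120, 0.0910, 0.125 and 0.190. The interval of the last part, 0.145 to 0.214 in replicate 1 and 0.164 to 0.218 in replicate 2, did not overlap that of any other part in either library. Even this part stood well below CASC8 and CASC11. The parts were laid after the levels had been seen, and their difference is a description.

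The level changed at both ends of PVT1, more steeply at the start of the gene. In the 10 kb before the start the level was 1.03 and 1.04, and in the first 10 kb of the gene it was 0.114 and 0.144. The outer stretch was 9.08 times the inner in replicate 1 (4.75 to 21.4) and 7.24 times in replicate 2 (4.59 to 12.4). Single bins show that the fall began before the gene: the bin from 5 to 4 kb before the start read 49 and 64 reads, the last bin before it 3 and 14, and the first bin inside 0 and 2. At the other end the rise was slower. The last 10 kb inside read 0.173 and 0.141 and the first 10 kb outside 0.377 and 0.477, a ratio of 2.18 (1.14 to 4.50) and 3.38 (2.01 to 5.83). The first 4 kb beyond the gene were still under 0.5-fold in both libraries.

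**Figure D3:**
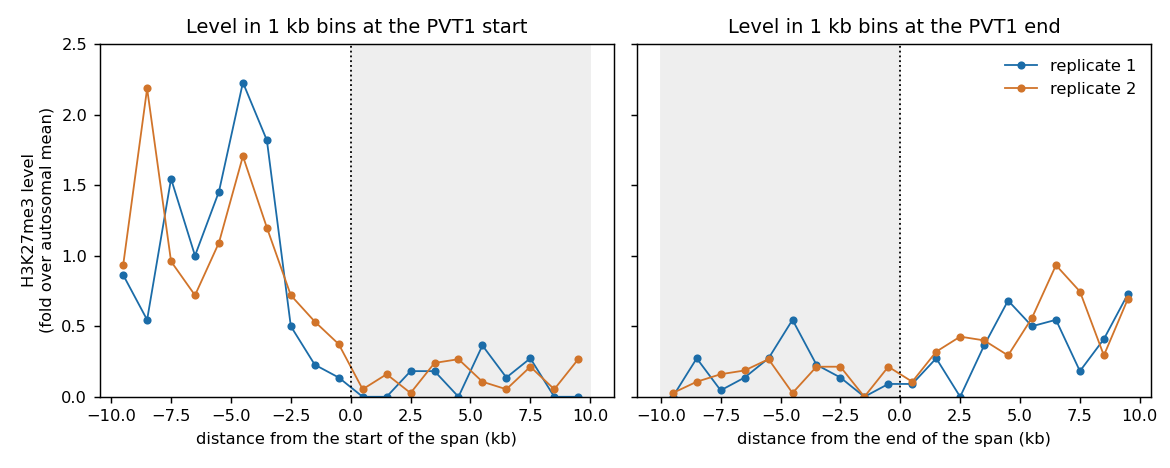
H3K27me3 level (fold over the autosomal mean) of single 1 kb bins within 10 kb of the start (left) and the end (right) of the PVT1 span, shaded, for each library. On the left the level falls over the last few kb before the gene, and on the right it climbs over about 10 kb beyond it.

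PVT1 also stood low for its length. No window of 308 kb on chromosome 8 beyond 70 Mb was lower in either library, among 74570 windows at steps of 1 kb with at least 90% of bins listed. The windows overlap. With no minimum of listed bins, 81 of 75997 windows were lower in both libraries, and in each of these at most 32.1% of bins were listed. Over all autosomes, among windows with at least 90% of bins listed, 2.54% were lower than PVT1 in replicate 1 and 2.07% in replicate 2. With no minimum of listed bins the autosomal shares were 10.4% and 10.0%. Equally poor stretches of this length thus exist elsewhere.

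CCAT1, a noncoding RNA gene of the upstream enhancer region that is known for high expression in colon tumours, occupies 13 kb at chr8:128219001-128232000. It held 60 and 105 reads, a level of 0.210 (0.132 to 0.316) and 0.215 (0.153 to 0.294), or 0.212 ± 0.00383 (SD, n = 2). Along the span, the bins of replicate 1 held 5, 7, 8, 4, 0, 4, 13, 1, 4, 2, 2, 4 and 6 reads. Those of replicate 2 held 4, 15, 9, 11, 13, 7, 3, 4, 10, 4, 7, 3 and 15 reads. In all, 12 bins (92.3%) lay under 0.5-fold in both libraries, against 54.2% of autosomal bins, and the exception, with 13 reads, was at 0.591 in replicate 1 and at 0.0799 in replicate 2. For its length CCAT1 was less unusual than PVT1: 30.6% and 28.3% of autosomal windows of 13 kb stood at or below it.

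As at MYC, the low level reached past the span. The 5 kb before CCAT1 read 0.227 and 0.282, and the 3 steps of 5 kb after it read 0.255, 0.264 and 0.282 in replicate 1 and 0.234, 0.336 and 0.213 in replicate 2. The next step was at 0.482 and 0.528. Against 25 kb on either side, which include these low stretches, CCAT1 stood at 0.547 times the level in replicate 1 (0.344 to 0.870) and 0.516 times in replicate 2 (0.356 to 0.715).

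CASC8, a long noncoding RNA gene in a region known for inherited risk of colorectal cancer, occupies 193 kb at chr8:128302001-128495000 and contains POU5F1B. It held 2000 and 3749 reads, a level of 0.471 (0.437 to 0.507) and 0.518 (0.490 to 0.546), or 0.494 ± 0.0329 (SD, n = 2). It lay between its flanks: the 25 kb before it read 0.625 and 0.742, and the 25 kb after it 0.333 and 0.339. Over both flanks combined the ratio was 0.983 (0.836 to 1.16) and 0.958 (0.852 to 1.08), an average of a higher and a lower side. Only 65 of its 187 listed bins (34.8%) were under 0.5-fold in both libraries, fewer than the 54.2% of autosomal bins. Its first 48 kb were the lowest, at 0.337 and 0.407, and the following 3 parts of about that length ranged from 0.487 to 0.563. The highest bin, at 128350001-128351000, held 49 and 62 reads, levels of 2.23 and 1.65, and so passed 2-fold in replicate 1 only. The longest low run of CASC8 spanned 10 kb from 128323001 to 128333000 at 0.0682 and 0.0480. In that run 5 bins were listed in neither library, so its depth as a trough is uncertain. The run lies within the first 48 kb, so the lower level of that part rests partly on it.

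POU5F1B is a retrocopy of POU5F1, which encodes the pluripotency factor OCT4, and occupies 4 kb at chr8:128426001-128430000. It held 36 reads in each library, a level of 0.409 (0.223 to 0.688) in replicate 1 and 0.240 (0.131 to 0.404) in replicate 2, or 0.324 ± 0.120 (SD, n = 2). Its bins held 10, 8, 2 and 16 reads in replicate 1 and 16, 8, 6 and 6 in replicate 2. The last bin alone, at 0.727 and 0.160, differs between the libraries more than the other 3 do. Since the gene is a near-identical copy, its reads can also be placed on other copies, and the mapping filter is not given in the sources used here. POU5F1B did not differ from its flanks in replicate 1, at 0.968 times their level (0.524 to 1.69), and stood at 0.425 times in replicate 2 (0.233 to 0.731). Its own level is therefore not settled by these libraries.

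CASC11, a noncoding RNA gene that starts close to the MYC promoter and is read away from it, occupies 35 kb at chr8:128712001-128747000. It had the highest level of the members, with 479 and 849 reads, at 0.622 (0.534 to 0.721) and 0.646 (0.577 to 0.722), or 0.634 ± 0.0171 (SD, n = 2). As a whole it did not differ from its flanks, at 1.08 times (0.884 to 1.32) and 1.10 times (0.948 to 1.28) their level. The flank on the side of MYC, at 0.640 and 0.591, averages the low MYC span and the step at 1.37 and 1.43 beyond it. Inside the gene the level was lower on the side of MYC. In consecutive steps of 5 kb, ending beside MYC, replicate 1 read 0.864, 0.764, 1.05, 0.491, 0.482, 0.464 and 0.245. Replicate 2 read 1.25, 0.501, 1.26, 0.442, 0.405, 0.416 and 0.2504. The steps of the 15 kb farthest from MYC thus read above the rest of the gene in both libraries. The second step of replicate 2 did so only slightly, at 0.501 against 0.442. The 5 kb nearest MYC were the lowest in both. The highest bin, at 128713001-128714000, held 27 and 96 reads, levels of 1.23 and 2.56.

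**Figure D4:**
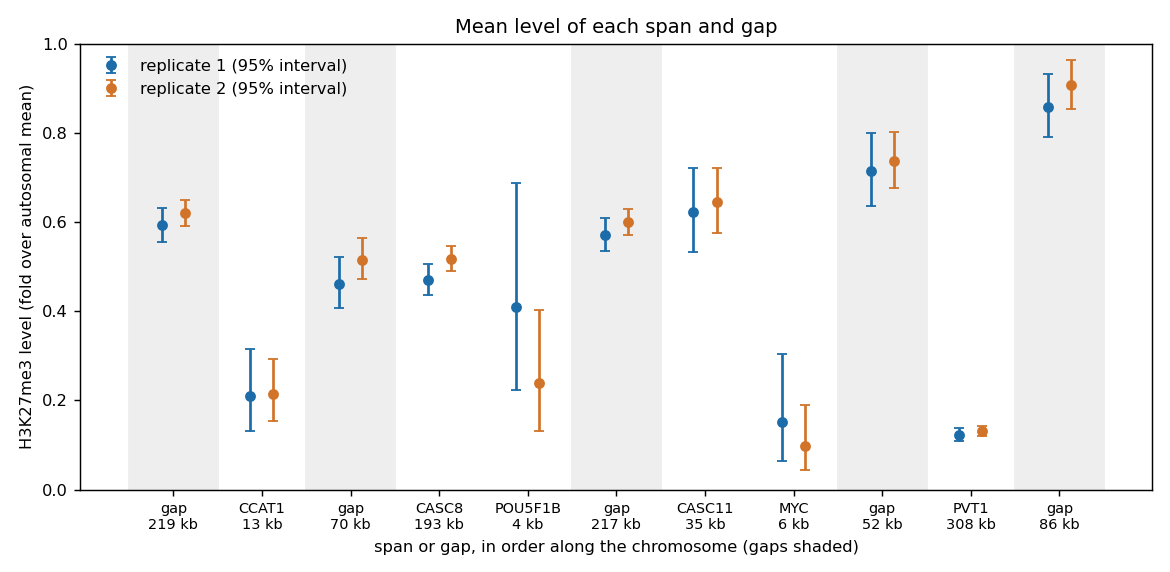
Mean H3K27me3 level (fold over the autosomal mean) of each span and, shaded, each gap longer than 1 kb, in chromosome order, with each library's 95% interval. CCAT1, MYC and PVT1 lie below every gap shown in both libraries, CASC8 and CASC11 lie among the gaps, and POU5F1B has the widest interval.

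Each span was then compared with each other one. In each of the 15 pairs, the split of reads was tested against the split of lengths by a two-sided exact binomial test per library. It used dispersion-divided counts rounded to whole numbers. P-values were Benjamini-Hochberg adjusted over the 15 pairs, and a pair was called where it passed 0.05 in both libraries in the same direction. Such a test compares regions within these libraries. In all, 10 pairs were called. The 6 that set CCAT1, MYC and PVT1 below CASC8 and CASC11 were also called under each of the 7 alternative settings tried. CASC8 stood 3.83 times above PVT1 in replicate 1 (3.33 to 4.43) and 3.93 times in replicate 2 (3.54 to 4.37), a log2 ratio of 1.96 ± 0.03 (SD, n = 2). CASC11 stood 5.05 times above PVT1 (4.16 to 6.13) and 4.91 times (4.24 to 5.66), a log2 ratio of 2.32 ± 0.03.

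MYC was below CASC8 and CASC11 by margins that its few reads leave wide. CASC8 over MYC was 3.11 (1.495 to 6.89) and 5.30 (2.81 to 12.9), and CASC11 over MYC was 4.11 (1.94 to 9.18) and 6.62 (3.47 to 16.2). CCAT1 stood at 0.445 (0.286 to 0.687) and 0.416 (0.291 to 0.565) times CASC8, and at 0.337 (0.213 to 0.534) and 0.333 (0.230 to 0.461) times CASC11.

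The other 4 calls did not hold under every setting. CCAT1 over PVT1, at 1.70 (1.09 to 2.67) and 1.64 (1.14 to 2.24), POU5F1B over PVT1, at 3.32 (1.82 to 5.75) and 1.82 (1.00 to 3.12), and POU5F1B over MYC, at 2.70 and 2.45 (1.02 to 7.16 in each), were lost when 1 bin was trimmed from each end of the spans. They were lost as well when replicate 2 was thinned to the depth of replicate 1, and POU5F1B over PVT1 also when absent bins were left out. CASC8 over CASC11, at 0.757 (0.643 to 0.901) and 0.801 (0.708 to 0.910), was lost with thinning only. The interval of POU5F1B over MYC is the same in both libraries because their rounded counts coincide.

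Neighbours in the order of levels were often not told apart. MYC over PVT1 was 1.23 (0.553 to 2.59) in replicate 1 and 0.742 (0.304 to 1.41) in replicate 2. The interval of replicate 1 allows MYC more than 2-fold above PVT1, but not as far below it. That of replicate 2 allows MYC more than 2-fold below PVT1, but not as far above it. CCAT1 over MYC, which passed in replicate 2 only, was 1.38 (0.581 to 3.48) and 2.20 (1.05 to 5.65), and CCAT1 over POU5F1B was 0.513 (0.255 to 1.09) and 0.897 (0.466 to 1.75). POU5F1B against CASC8 without its own bins, and against CASC11, passed in replicate 2 only.

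The gaps between the members give the level of the surrounding DNA. From 128000001 to CCAT1 the level was 0.594 and 0.621, between CCAT1 and CASC8 0.462 and 0.516, and between CASC8 and CASC11 0.572 and 0.600. It rose to 0.714 and 0.738 between MYC and PVT1 and to 0.859 and 0.908 from the end of PVT1 to 129200000. The gap of 1 kb between CASC11 and MYC held 7 and 0 reads and is part of the low stretch at MYC. Of 641 listed gap bins, 190 (29.6%) were under 0.5-fold in both libraries and 2 were enriched in both, against 54.2% and 12.7% of autosomal bins. The second enriched bin, at 129182001-129183000, lies beyond PVT1 and read 2.41 and 2.29. At these limits the gaps were neither rich in the mark nor as low as PVT1, MYC and CCAT1.

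**Figure D5:**
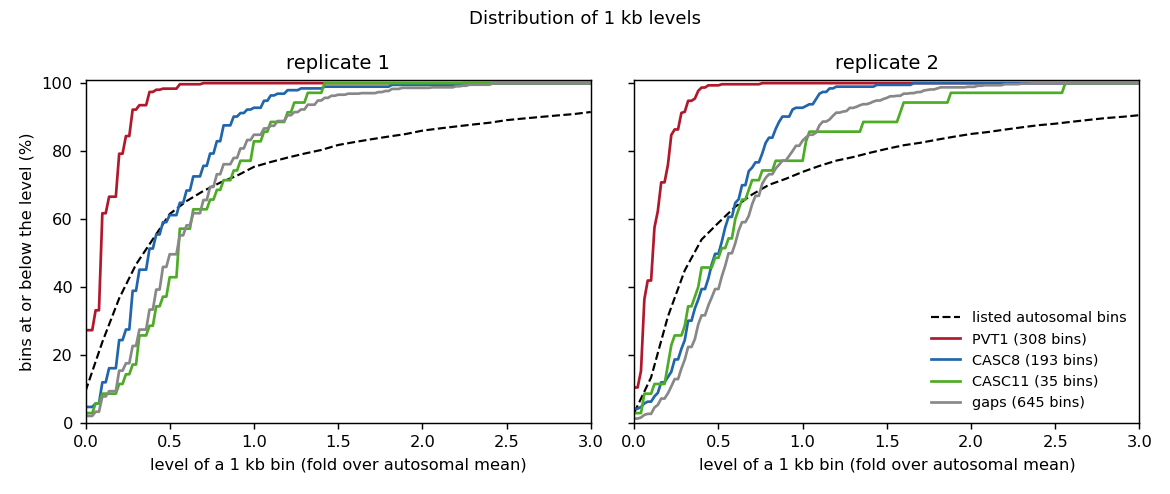
Share of 1 kb bins (%) at or below a given level (fold over the autosomal mean) in each library, for PVT1, CASC8, CASC11, the gaps and all listed autosomal bins (dashed). The curve of PVT1 lies far to the left, with medians of 0.0909 and 0.107, and none of the curves of this locus has the long right tail of the autosomal bins.

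No difference between the replicates was called at the members, though the dispersion used takes up real differences too. With an exact binomial test per bin on dispersion-divided counts, Benjamini-Hochberg adjusted over all listed autosomal bins, 0 member bins differed between the libraries, as did 0 (0%) of the autosomal bins. At an unadjusted p under 0.05, 15 member bins (2.81%) differed, where 2.97% of autosomal bins did. With raw counts the same test called 14 member bins (2.62%), against 3.29% of autosomal bins. Level ratios of replicate 2 over replicate 1 were between 1.03 and 1.10 in CCAT1, CASC8, CASC11 and PVT1. The ratio was 0.645 in MYC and 0.586 in POU5F1B, the members with the fewest reads.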

How the data were processed

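The data are 2 H3K27me3 ChIP-seq libraries of HCT116 cells in 1 group. Each deposited file lists unnormalised read counts in bins of 1000 bases, as its accompanying text says, and omits bins with no read. Per the submitters' processing notes, the aligner BWA 0.7.12 and the build hg19 were used. How reads were counted, and whether duplicates or poorly mapped reads were removed, is not given in the sources used here. Among listed autosomal bins, even counts made up 67.8% and 67.7% of those with 1 to 10 reads.

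Spans and gaps were read from 1 kb bins of chromosome 8, between 128000001 and 129200000. Levels are folds over the library's mean of listed autosomal bins. The dispersion is the Pearson statistic of the split of reads between the libraries over autosomal windows of the span's length, 2.42 at 1 kb and 3.06 at the length of PVT1. It absorbs real differences between the libraries. For the binomial tests, counts divided by it were rounded to whole numbers. Reads in neighbouring bins depend on each other, so intervals and tests within a library may be too narrow. Replicates are labelled biological, and their separate cultures are not described.

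The members, and the tests made on them, were chosen with earlier results of these data known. The bins to be named were all bins of MYC, POU5F1B and CCAT1. Elsewhere they were the longest run under 0.5-fold and the 3 highest by mean, with bins within 2 kb of a higher one skipped. Not all of these are printed. The bin at 129062001 in PVT1 falls outside this rule, as do the bins directly on either side of the PVT1 start. All were named after their values were seen. The flanks of 25 kb, the edges of 10 kb, the parts and steps, and the comparison with windows of equal length were added after the values had been seen. The pair calls, the intervals of levels and the dispersion estimate were tested on simulated counts. Those counts were drawn independently at a set dispersion, so dependence between neighbouring bins was not simulated. The other results were not tested in this way. Scripts ran in Python 3.11.15 with scipy 1.17.1, numpy 2.4.6, matplotlib 3.10.9 and pandas 2.3.3. Exons and introns were not separated, since gene models on hg19 were not used here.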

Additional observations from a re-analysis of the deposited data

How the results depend on the processing

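The 10 pairs of spans called became 6 with replicate 2 thinned to the depth of replicate 1, 11 with raw counts, 7 with 1 bin trimmed from each end, 9 with absent bins left out, and 10 to 13 with a replicate left out. The 0 member bins enriched in both libraries became 1 at 1.5-fold (16.4% of autosomal bins) and 23 when scaled to the autosomal median (4.31%, against 26.7%). The count was 1 without replicate 1 (15% of autosomal bins) and 1 without replicate 2 (14%). It was also 0 at 3-fold (7.64% of autosomal bins) and when scaled to chromosome 8 (9.5%). The 382 member bins under 0.5-fold (71.5%, against 54.2% of autosomal bins) became 246 at a limit of 0.25-fold (46.1%, against 28.7%). The count was 183 when scaled to the autosomal median (34.3%, against 20.6%) and 434 when scaled to chromosome 8 (81.3%, against 61.8%). Without replicate 1 it was 417 (78.1%, against 58.9%), and without replicate 2 it was 433 (81.1%, against 61.5%). PVT1 held 286 of the 382 bins. In the members without PVT1, 96 of 241 listed bins (39.8%) were under 0.5-fold in both libraries, a smaller share than the autosomal 54.2%. The 0 member bins differing between replicates became 14 with raw counts (2.62%, against 3.29%). Scaled to chromosome 8, PVT1 became 0.0980, MYC 0.0962, CCAT1 0.164, POU5F1B 0.251, CASC8 0.380 and CASC11 0.488. Trimming moved POU5F1B from 0.324 to 0.207, with 2 bins left. For these moves the cause was not tested. Depth limits MYC, POU5F1B and CCAT1, which held 20 to 105 reads. No paired analysis was possible because the series has a single group.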

Other observations

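The libraries shared the pattern of 1 kb bins inside the spans to different degrees. Pearson's r between the libraries was 0.721 across the 35 bins of CASC11, 0.559 across the 193 bins of CASC8 and 0.193 across the 308 bins of PVT1. It was -0.0475 across the 13 bins of CCAT1 and 0.258 across the 6 bins of MYC. In the gaps longer than 1 kb it ran from 0.541, between the window's start and CCAT1, to 0.746 beyond PVT1. These are correlations across bins of the same libraries, given as a description, and the bins of PVT1 held a median of 2 and 4 reads.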
